A study of Mus musculus with 2 samples.

Results

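The genes described here encode the machines that move nucleosomes. They are 28 subunit genes of the BAF complexes, 14 genes for the ATPases of the CHD, ISWI and INO80 families, and the ATPase genes Hells and Atrx, 44 genes in all. They were followed in 2 lists of open chromatin peaks, 1 from Brg1 cKO and 1 from control mouse kidney cells. A peak was assigned to a gene when its summit, the point of highest signal, lay inside the gene. Any other peak was assigned to 1 of the 44 genes when the nearest protein-coding gene end, up to 100 kb away, was that gene's. The summit of such a peak could lie inside another protein-coding gene. The 44 genes, of 21887 protein-coding genes on the chromosomes, held 187 of 61210 peaks of the cKO list and 273 of 77529 peaks of the control list.

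The cells were tdTomato cells of the Wnt4 lineage, sorted from kidneys at E18.5, late in gestation. Wnt4 is switched on in cells that turn from mesenchyme into nephron epithelium. The cKO library carries the genotype label Brg1cKO/cKO, and the control library is labelled WT control; 50000 cells went into each reaction. ATAC-seq, the method used, cuts accessible DNA with a transposase, so a peak marks a stretch of open chromatin. The sources used here do not name the Cre driver, the deleted part of Smarca4 or the number of embryos. The cell type field reads only control for the control library, and the library source is entered as transcriptomic, so the sort rests on the shared protocol and the titles.

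Chromatin remodellers use ATP to slide, evict or exchange nucleosomes. BAF assemblies are built around either of the ATPases BRG1, encoded by Smarca4, and BRM, encoded by Smarca2, and come in the forms canonical BAF, PBAF and ncBAF, each with subunits of its own. CHD and ISWI enzymes mainly space and slide nucleosomes, and some enzymes of the INO80 family exchange histone variants.

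All 44 genes had a peak at a start, or at an end where the strand was not at hand, in both libraries, so the promoter sequences are shown first. RefSeq promoter windows of GRCm38.p6, the assembly of mm10, run from 250 bases before to 50 bases after a start and were at hand for 34 of the 44 genes, as 39 windows. Smarce1, Arid2, Bicra, Bicral, Ss18, Bcl7a, Chd1, Chd2, Chd3 and Chd7 were not matched in that table. Of the 39 windows, 37 were overlapped by a peak in both lists and 0 by a peak of a single list. The following 5 genes are shown because the results turn on them: Smarca4 as the gene named in the genotype, Smarca2 as its paralogue, Arid1b as the gene with the most peaks missing from the cKO list, and Chd9 and Smarcd2 because they hold the windows without a peak in either list. The windows are Smarca4 chr9:21615919-21616218, Smarca2 chr19:26604910-26605209, Arid1b chr17:4994824-4995123, Chd9 chr8:90828585-90828884 at the first start and chr8:90931999-90932298 at the second, all on the plus strand, and Smarcd2 chr11:106267583-106267882 on the minus strand. The Arid1b, Smarcd2 and both Chd9 windows lie wholly inside their genes as annotated, and the Arid1b gene begins at 4994297. Letters are given from 5′ to 3′ along the gene, and capitals mark matches to the motifs listed after them.
Smarca4: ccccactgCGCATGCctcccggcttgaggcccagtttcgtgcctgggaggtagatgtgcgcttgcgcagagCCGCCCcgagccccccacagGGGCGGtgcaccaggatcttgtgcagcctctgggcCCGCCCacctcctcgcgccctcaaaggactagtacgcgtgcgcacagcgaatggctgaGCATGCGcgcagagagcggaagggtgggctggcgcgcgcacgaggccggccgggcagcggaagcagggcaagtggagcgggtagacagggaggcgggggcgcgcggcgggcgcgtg
Smarca2: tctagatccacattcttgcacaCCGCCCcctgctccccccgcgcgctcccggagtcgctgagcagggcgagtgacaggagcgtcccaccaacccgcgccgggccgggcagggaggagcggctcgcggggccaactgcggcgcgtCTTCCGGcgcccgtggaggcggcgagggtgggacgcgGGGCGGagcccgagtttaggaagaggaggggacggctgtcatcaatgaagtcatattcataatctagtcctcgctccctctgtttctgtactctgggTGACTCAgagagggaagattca
Arid1b: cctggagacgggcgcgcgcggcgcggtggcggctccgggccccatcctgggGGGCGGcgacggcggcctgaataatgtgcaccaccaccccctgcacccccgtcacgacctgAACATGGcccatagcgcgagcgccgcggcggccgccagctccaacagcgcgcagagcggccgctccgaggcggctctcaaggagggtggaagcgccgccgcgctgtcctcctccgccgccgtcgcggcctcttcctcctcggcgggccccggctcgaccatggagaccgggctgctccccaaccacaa
Chd9 first start: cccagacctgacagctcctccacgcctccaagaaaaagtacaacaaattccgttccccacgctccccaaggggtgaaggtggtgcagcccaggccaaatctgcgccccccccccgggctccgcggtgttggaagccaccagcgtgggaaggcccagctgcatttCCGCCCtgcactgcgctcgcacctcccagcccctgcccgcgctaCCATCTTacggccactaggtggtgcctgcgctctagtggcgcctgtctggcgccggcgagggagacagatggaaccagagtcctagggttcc
Chd9 second start: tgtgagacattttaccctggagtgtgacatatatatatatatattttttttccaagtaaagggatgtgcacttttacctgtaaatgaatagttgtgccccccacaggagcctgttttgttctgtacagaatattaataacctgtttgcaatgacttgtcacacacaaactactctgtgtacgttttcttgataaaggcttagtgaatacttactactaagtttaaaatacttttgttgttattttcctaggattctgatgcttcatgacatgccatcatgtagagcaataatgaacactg
Smarcd2: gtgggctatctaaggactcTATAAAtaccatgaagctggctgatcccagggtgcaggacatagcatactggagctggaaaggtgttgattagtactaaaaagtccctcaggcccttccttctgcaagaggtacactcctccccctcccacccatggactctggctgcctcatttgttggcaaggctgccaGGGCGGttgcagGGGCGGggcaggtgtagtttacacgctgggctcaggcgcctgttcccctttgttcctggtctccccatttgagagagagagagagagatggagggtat

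Of the windows shown, those with a peak held more CG than those without. Smarca4 held 33 CG dinucleotides, Smarca2 29, Arid1b 42 and the first Chd9 start 19. The second Chd9 start, without a peak, held 1 and the Smarcd2 window, also without a peak, 4. Some windows with a peak in both lists held few CG too, 9 at Smarca1 and 11 at Atrx. Over the 39 member windows the median was 32, with a range of 1 to 62, against a median of 21 over the 13548 protein-coding windows with a peak in both lists and 13 over all 21263. Smarcd2, a core subunit gene, had a weaker peak within 1000 bp of that start, which lies inside the gene. It was open at its upper end, the 5′ end on the minus strand, where peaks of both lists (cKO chr11:106271178-106273792, control chr11:106271173-106273762) covered it.

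The search covered 8 short motifs on both strands, and none of them contains another, although neighbouring matches can share letters. The SP/KLF motif GGGCGG was found in 92.3% of the member windows, in 66.5% of windows open in both lists and in 46.2% of all windows. The NRF1 motif GCATGCG occurred in 10.3% of member, 6.1% of open and 4.4% of all windows, and the remaining motifs are given in that order. The shares for the ETS motif CCGGAAG were 12.8%, 16.7% and 11.6%, and for the YY1 motif AANATGG 17.9%, 13.3% and 15.1%. The NFY motif CCAAT was found in 28.2%, 37.2% and 38.2%, and the TATA motif TATAAA in 2.6%, 6.4% and 12.6%. The CRE motif TGACGTC was found in 7.7%, 5.3% and 3.8%, and the AP-1 motif TGANTCA in 5.1%, 4.4% and 7.0%. The member windows thus held the GC-rich SP/KLF letters more often than open windows in general, a description of 39 windows whose median GC content was also higher, 68.0% against 61.7% in windows open in both lists.

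A few facts of the libraries bear on all that follows. Read counts are not part of the lists, so sequencing depth is unknown, and a site without a called peak may still be open. A peak was called found when it overlapped a peak of the other list by at least 1 bp. Of all peaks, 5.92% of the cKO list and 25.9% of the control list were not found in the other. Weak peaks are missed more often, so each list was divided into 10 equal strength classes by the caller's -log10 p, from class 1 for the weakest to class 10 for the strongest peaks. The share expected of a gene or group is that of all peaks of its list in the same classes. There was 1 library per genotype, so no test was possible. Intervals are 95% intervals that cover counting error only, and peaks of the same gene are not independent of each other. In sorted bulk cells, fewer cells with an open site and a site less open in each cell cannot be told apart. Markers of early nephron had a start peak at 7 of 7 genes in both lists and podocyte markers at 5 of 5 in both. So did interstitial markers at 4 of 4, ureteric bud markers at 3 of 3 and endothelial markers at 3 of 3. Proximal tubule markers had one at 1 of 4 genes in the cKO and 2 of 4 in the control list, loop and distal tubule markers at 1 of 4 in both, immune markers at 0 of 2 in the cKO and 1 of 2 in the control list, and the erythroid markers Gata1 and Hbb-bs had no peak in either. The peaks assigned to podocyte markers numbered 43 in the cKO and 76 in the control list, and the part of cell makeup in the results was not tested.

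The strongest peak at the start of each remodeller gene was examined next. For 34 genes a peak within 1000 bp of an annotated start was taken, and for the other 10, whose strand was not at hand, a peak within 1000 bp of either end. All 44 genes had such a peak in both lists, and all 44 of these peaks overlapped between the lists. Over all protein-coding genes, 66.3% had a start peak in both lists, 0.228% in the cKO list alone and 1.49% in the control list alone. Of the strongest start peak per gene, 31 in the cKO and 33 in the control list were in class 10, and 41 in each list were in classes 8 to 10. Taking the strongest peak favours strong ones, so the same choice was made at the 14516 coding genes with a start peak in both lists. In class 10 were 70.5% of the cKO and 75% of the control start peaks of the 44 genes, against 44.9% of cKO and 54.95% of control start peaks of those coding genes. In classes 8 to 10 were 93.2% of the start peaks of the 44 genes in either list, against 86.5% of cKO and 90.2% of control start peaks of those coding genes. The 3 genes below class 8 were Smarca1, Chd5 and Smarcd2. Smarca1, which encodes an ISWI ATPase, was in class 5 of the cKO and 6 of the control list. Chd5, the member of the NuRD-type CHD genes best known from neurons, was in class 7 of both. Smarcd2 was in class 6 of both, at the start of the window shown above, which lies inside the gene. The peaks over its upper end, the 5′ end on the minus strand, were in class 10 of both lists.

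Start peaks had similar widths in both lists. Their median width was 2159.5 bp in the cKO and 2264.5 bp in the control list, against 1847 bp in the cKO and 1882 bp in the control list at the 14516 coding genes. Actl6b, an actin-related subunit gene used mainly in neurons, had the narrowest, 730 bp in the cKO and 767 bp in the control list. Chd4, the main NuRD ATPase gene, had 6139 bp in the cKO and 6084 bp in the control list. The Arid1b start peak measured 4597 bp in the cKO and 4598 bp in the control list. Arid1a differed most in width, with 6715 bp in the cKO and 4507 bp in the control list, where the cKO peak ran over 2 control peaks. For Smarca4 itself the widths were 2150 bp in the cKO and 2881 bp in the control list. Summits also coincided. Among the 170 member peaks that paired singly between the lists, the median distance between summits was 11 bp, 75.9% lay within 50 bp, and the median width ratio of cKO over control was 0.969. Over all 54820 such pairs these values were 9 bp, 77.1% and 0.982.

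**Figure D1:**
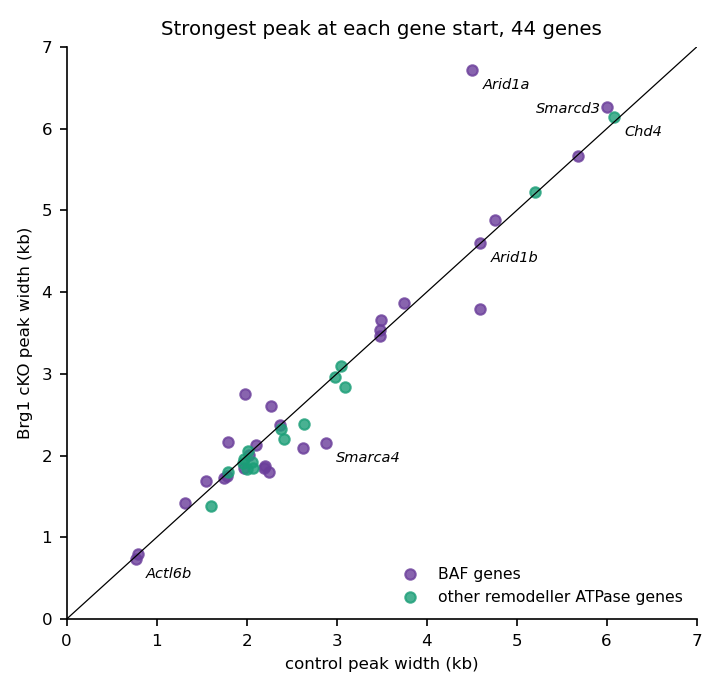
Width in kb of the strongest start peak of each of the 44 genes in the Brg1 cKO list (vertical axis) against the control list (horizontal axis), with the line of equal width. Purple points are BAF subunit genes and green points the other ATPase genes; most points lie on the line, and Arid1a stands above it with 6715 bp in the cKO and 4507 bp in the control list.

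At these genes the lists differed in the peaks beyond the starts, mostly by control peaks without a cKO peak. The whole lists differed in the same direction, with 25.9% of control and 5.92% of cKO peaks not found. Of the 187 member peaks of the cKO list, 180 were found in the control list (96.3%, 92.4 to 98.5%), where 94.4% was expected. Of the 273 member peaks of the control list, 182 were found in the cKO list (66.7%, 60.7 to 72.2%), where 73.0% was expected. The 7 cKO peaks without a control peak and the 91 control peaks without a cKO peak were narrower and weaker than the rest. Median widths were 726 bp for the unmatched and 1122.5 bp for the matched cKO peaks, and 599 bp for the unmatched and 1265 bp for the matched control peaks. None of the 91 unmatched control peaks was above class 7, and 65 were in classes 1 to 3. The strongest, 931 bp wide with a -log10 p of 6.62, lay 8.27 kb outside Dpf3 at chr12:83495321-83496251.

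Peaks were unevenly spread over the genes. In the control list 6 genes with at least 10 peaks, Arid1b, Dpf3, Chd2, Chd7, Chd9 and Bicral, held 147 of the 273 peaks, while 25 genes had 3 or fewer. Genes of 100 kb or more, 13 of the 44, held 102 cKO and 165 control peaks, and 68 of these control peaks were not found. The other 31 genes held 85 cKO and 108 control peaks, and 23 of these control peaks were not found. At least 1 unmatched cKO peak was assigned to 6 of the 42 genes with a cKO peak, where 13.7% of all protein-coding genes with a cKO peak had one. At least 1 unmatched control peak was assigned to 23 of the 44 genes, where the share of all protein-coding genes with a control peak was 47%. Counted by gene, both figures were near this background and say nothing particular about the remodeller genes.

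**Figure D2:**
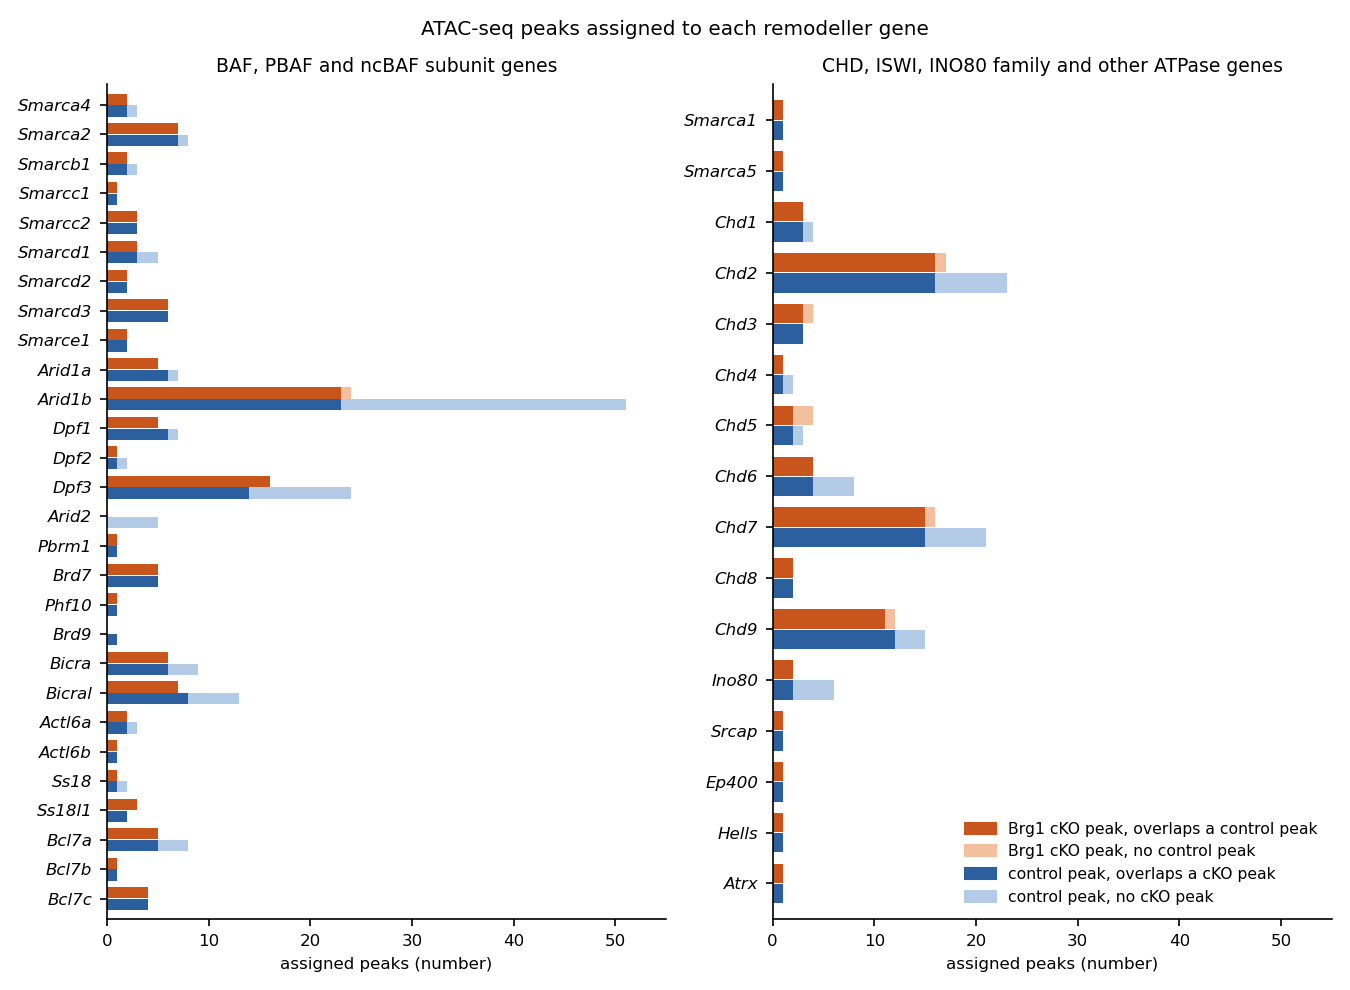
Number of peaks assigned to each of the 44 genes, with Brg1 cKO peaks (orange, upper bar) above control peaks (blue, lower bar); the pale part of a bar counts peaks with no counterpart in the other list. Arid1b stands out with 24 cKO and 51 control peaks, 28 of the control peaks unmatched.

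The 28 BAF genes and the 14 CHD, ISWI and INO80 family genes were set side by side. In the cKO list, 115 of 116 peaks at BAF genes were found in the control (99.1%, 95.3 to 99.98%), against 63 of 69 at the other ATPase genes (91.3%, 82.0 to 96.7%). The expected shares were 94.7% for BAF genes and 93.75% for the other ATPase genes. In the control list, 116 of 180 peaks at BAF genes were found in the cKO (64.4%, 57.0 to 71.4%), against 64 of 91 at the other ATPase genes (70.3%, 59.8 to 79.5%). Here the expected shares were 72.1% for BAF genes and 74.1% for the other ATPase genes. Found minus expected, the share of control peaks stood at -7.67 points for BAF genes (interval -13.1 to -2.22) and at -3.75 points for the other ATPase genes (-11.2 to 3.66). The difference between both groups was -3.92 points, with an interval of -13.1 to 5.28 that holds 0. For cKO peaks the difference between both groups was 6.87 points (0.37 to 13.4), that is, 1 unmatched peak among 116 at BAF genes and 6 among 69 at the other ATPase genes. That difference was 5.44 points (-3.22 to 14.1) when peaks had to overlap by 50% of both, 2.18 points (-4.93 to 9.3) in the stronger 50% of each list and 2.96 points (-5.57 to 11.5) with lists of equal length, so it did not hold beyond counting error under these settings.

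The low BAF share of control peaks rested on Arid1b. Without it, 93 of 129 control peaks at the other 27 BAF genes were found (72.1%), a difference from expectation of -3.21 points with an interval of -9.43 to 3.01, and all 92 cKO peaks were found. Without both Arid1b and Arid2 the share was 75% (93 of 124), a difference of -1.2 points. The interval of all 28 BAF genes also held 0 in the stronger 50% of each list, at -2.4 points (-9.25 to 4.46), with the control list reduced to as many peaks as the cKO list, at -5.18 points (-10.7 to 0.30), and without precedence for the gene around a summit, at -5.08 points (-10.9 to 0.72). Without Arid1b the difference in control peaks from the other ATPase genes was 0.54 points, of the opposite sign, with an interval of -9.14 to 10.2.

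**Figure D3:**
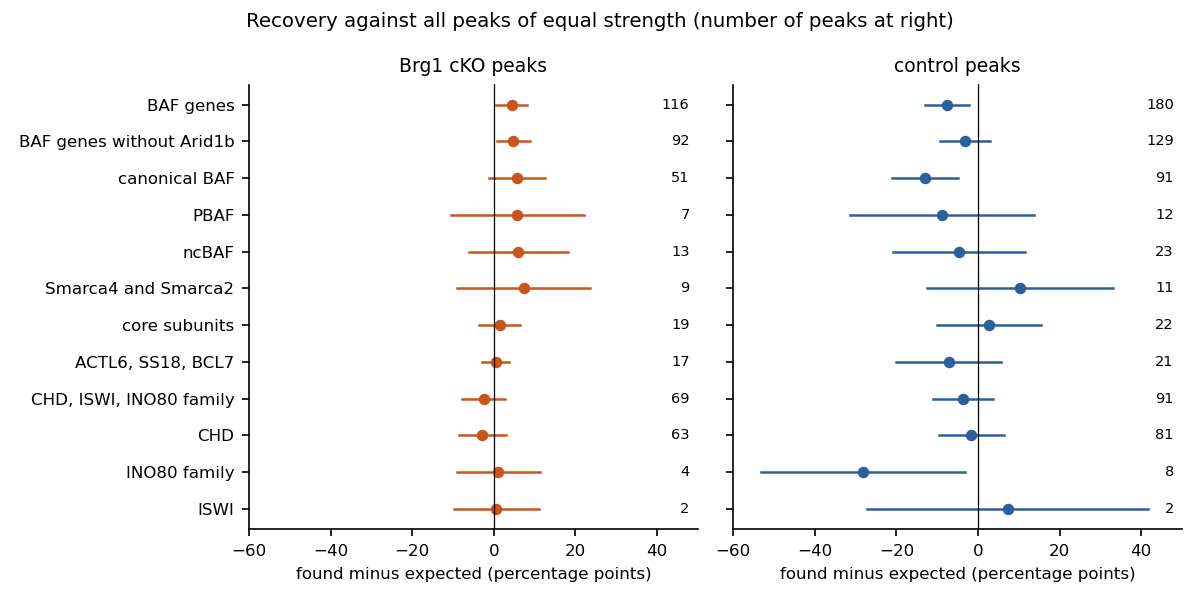
Share of peaks found in the other list minus the share expected from all peaks of the same classes, in percentage points, for Brg1 cKO peaks (left) and control peaks (right); lines are 95% intervals for counting error, and the number of peaks stands at the right. For control peaks the canonical BAF genes lie at -13.0 points and the CHD genes at -1.61 points.

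Unmatched peaks of both gene groups were weak or middling. In the control list, 19 of 63 BAF peaks in classes 1 to 3 were found (30.2%, with 41.7% expected). At the other ATPase genes it was 9 of 30 (30.0%, with 42.1% expected). Arid1b held 27 of these 63 BAF peaks, with 4 found and 11.14 expected. The BAF shortfall in these classes, and its likeness to the other ATPase genes, thus rested largely on Arid1b. In classes 4 to 6 the numbers were 32 of 51 at BAF genes (62.75%, with 76.0% expected) and 16 of 22 at the other ATPase genes (72.7%, with 75.35% expected). In classes 7 to 10, 65 of 66 BAF peaks and 39 of 39 peaks of the other ATPases were found, against 97.4% of all control peaks in those classes. In the cKO list most of the unmatched peaks were weak. There 27 of 28 BAF peaks in classes 1 to 3 were found, against 16 of 21 at the other ATPase genes and 82.4% of all cKO peaks in those classes. From class 7 upward all 54 BAF and all 32 other ATPase peaks of the cKO list were found.

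**Figure D4:**
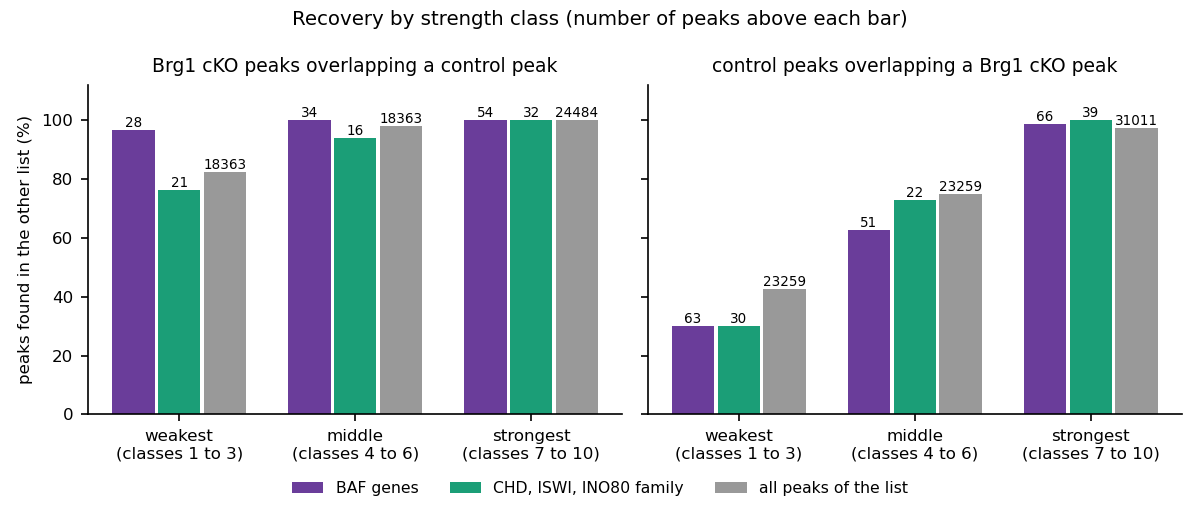
Percent of peaks found in the other list, by strength class, for Brg1 cKO peaks (left) and control peaks (right), at BAF genes (purple), at CHD, ISWI and INO80 family genes (green) and in the whole list (grey); numbers above the bars count peaks. Among the weakest control peaks both gene groups lie near 30%, below the 42.5% of the whole list. Arid1b holds 27 of the 63 weakest BAF control peaks, with 4 found. Among the strongest all bars are close to 100%.

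Recovery also varied with position. Within 1000 bp of an end of a member gene, 40 of 40 cKO peaks and 40 of 42 control peaks were found. The 2 exceptions were weak control peaks at the far end of Dpf3 and near an end of Smarcd1. Inside the genes but farther from an end, 92 of 96 cKO peaks and 93 of 169 control peaks were found. The control share there was 55.03% (47.2 to 62.7%), against an expected 67.45%. It was 54.7% at BAF genes (70 of 128) and 56.1% at the other ATPase genes (23 of 41). Arid1b alone held 48 of these 128 BAF peaks and 28 of the 58 that were unmatched, so the BAF share leaned on 1 gene. Outside the genes, 48 of 51 cKO peaks and 49 of 62 control peaks were found, and the control share was 79.0% (66.8 to 88.3%), with 73.3% expected. Over the whole control list, peaks inside a protein-coding gene and farther than 1000 bp from an end were found in 67.2% of cases, with 69.85% expected from their strength, and those inside genes of 100 kb or more in 64.7%, with 67.6% expected. Outside coding genes the whole control list stood at 72.8%, with 70.2% expected. Within 1000 bp of a gene end it stood at 94.6%, with 93.0% expected. The order of positions was thus the same over all genes, although member peaks outside their gene could lie inside another coding gene.

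Smarca4 and Smarca2, the genes of the interchangeable ATPases, each had a single unmatched control peak. Smarca4 (chr9:21616106-21704230) had 2 cKO peaks, both found, and 3 control peaks, of which 2 were found and 2.48 were expected. Its start peak was in class 10 of both lists, and an internal peak was in class 5 of the cKO and 6 of the control list (cKO chr9:21647561-21648389, control chr9:21647547-21648526). The unmatched control peak, chr9:21630697-21630955, was 259 bp wide and in class 4. Peaks at Smarca4 give no check of the genotype, since they cannot show the deletion. Smarca2 (chr19:26605073-26778321) had 7 cKO peaks, all found, and 8 control peaks, of which 7 were found and 5.40 were expected. Next to its start peak the strongest was an internal peak in class 9 of both lists, 2176 bp wide in the cKO (chr19:26746906-26749081) and 2365 bp in the control (chr19:26746768-26749132). The unmatched control peak of Smarca2, chr19:26731905-26732278, was in class 3. Neither paralogue had a peak in the cKO list alone.

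Core subunit genes, shared by BAF and PBAF, were near the share expected from strength alone. All 19 cKO peaks at the 7 genes were found, with 98.5% expected, and 19 of 22 control peaks (86.4%, with 83.7% expected). Every control peak was found at Smarcc1 and Smarcc2, the scaffold subunits, at Smarcd2 and Smarcd3, and at Smarce1, which carries an HMG domain. Smarcd3 had 6 peaks in each list. Smarcb1, the tumour suppressor subunit that contacts the nucleosome, kept 2 of 3 control peaks and Smarcd1 3 of 5.

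Canonical BAF subunit genes had the lowest share of the BAF families, 50 of 91 control peaks (54.95%, with 68.0% expected), against 50 of 51 cKO peaks. Arid1b, which encodes the alternative to ARID1A as the AT-rich interaction subunit, carried most of this. The gene spans 353.4 kb (chr17:4994297-5347656) and had 24 cKO peaks, 23 of them found, and 51 control peaks, of which 23 were found (45.1%, 31.1 to 59.7%) and 32.67 were expected. By number of control peaks it ranked 18th of the 21887 protein-coding genes. All 28 unmatched control peaks lay inside the gene, while the 3 peaks upstream of it, up to 86.0 kb from the start, were found in both lists. In classes 1 to 3, 4 of 27 control peaks were found, in classes 4 to 6 it was 3 of 8, and in classes 7 to 10 all 16. Of the cKO peaks, 6 of 7, 7 of 7 and 10 of 10 were found in the same classes.

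Along Arid1b the strong sites were shared, and most of the weak sites between them were called in the control list alone. The internal peak in class 10 of both lists (cKO chr17:5189183-5190832, control chr17:5189193-5190963) was 1650 bp wide in the cKO and 1771 bp in the control. A run of 5 control peaks with no cKO peak, in classes 1 and 3, stretched over 29.2 kb from 5217903 to 5247081, between peaks of both lists at each side. The cKO peak without a control peak, chr17:5209985-5210757, lay near this run and was in class 1. Among the 463 coding genes that had 20 or more control peaks, the median share found was 69.6%, and 26 of the 463, or 5.62%, were at or below the 45.1% of Arid1b. Found minus expected, Arid1b stood at -18.95 points, and 6.91% of these genes were as low or lower.

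**Figure D5:**
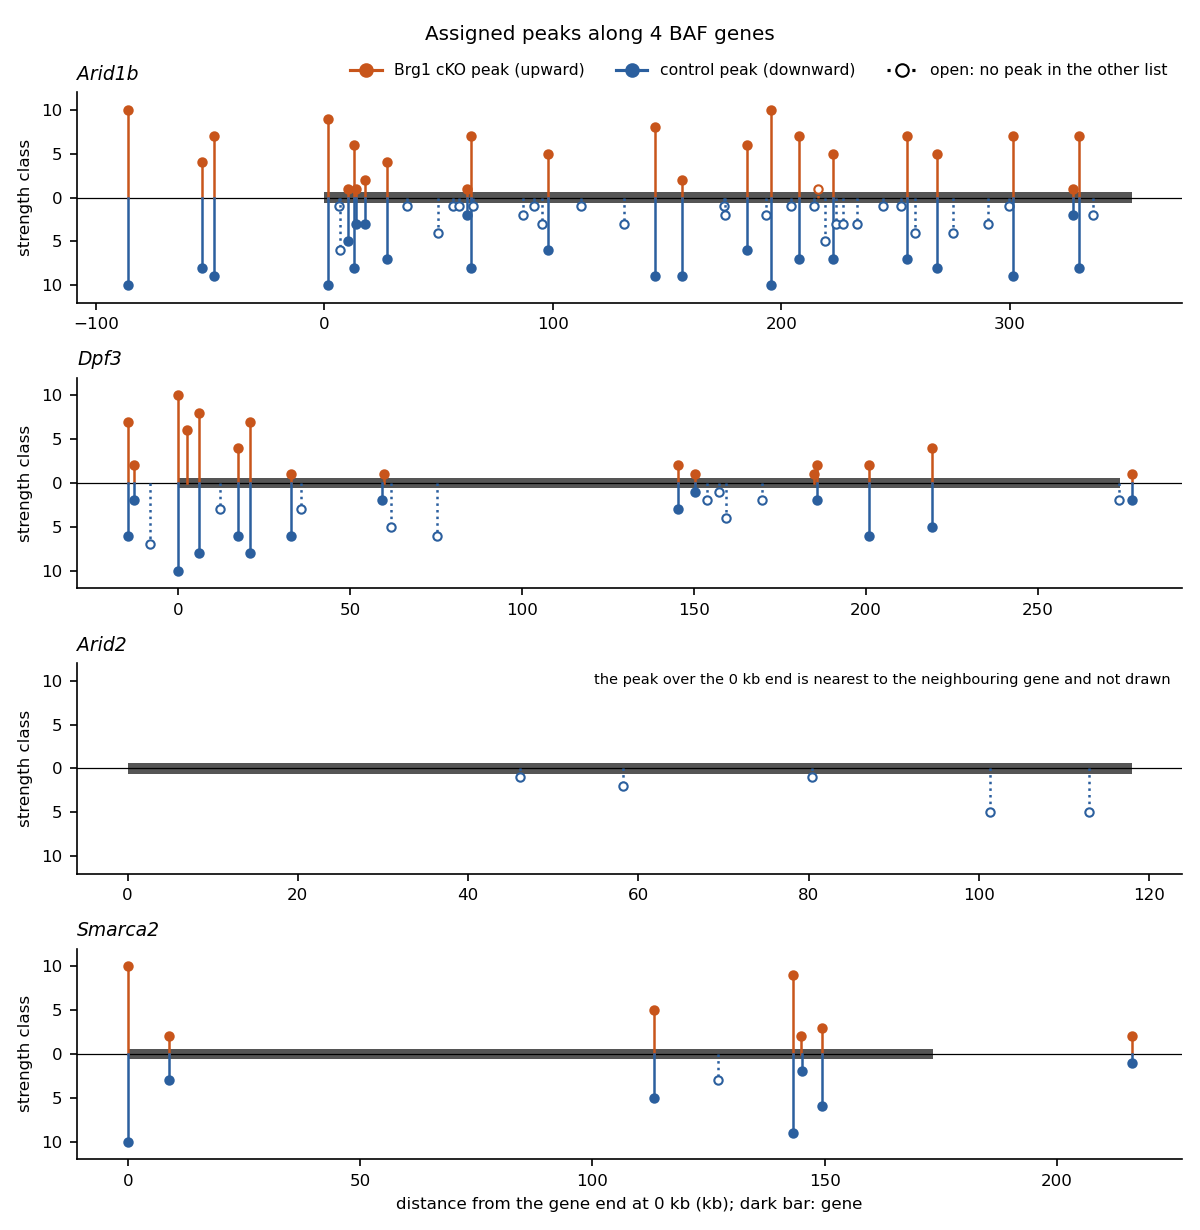
Peaks along Arid1b, Dpf3, Arid2 and Smarca2, by distance in kb from the gene end at 0, with Brg1 cKO peaks pointing up and control peaks pointing down; the length of a line is the strength class from 1 to 10, and open circles on dotted lines have no counterpart in the other list. Open circles are mostly short control peaks inside the genes, 28 at Arid1b, 10 at Dpf3, 5 at Arid2 and 1 at Smarca2.

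Dpf3, among the 3 genes for a subunit with paired PHD fingers that read histone tails, came next. This 274.0 kb gene on chromosome 12 had 16 cKO peaks, all found, and 24 control peaks, of which 14 were found and 15.43 were expected. A run of 4 unmatched control peaks stretched over 16.3 kb, from 83317575 to 83333915. Its start peak was in class 10 of both lists. Found minus expected, Dpf3 stood at -5.94 points, and 30.9% of the 463 genes were as low or lower. Its relatives had few peaks: Dpf1 kept 6 of 7 control peaks and Dpf2 1 of 2. Arid1a kept 6 of 7 control peaks, and its 5 cKO peaks were all found.

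PBAF genes kept 7 of 7 cKO peaks, with 94.2% expected, and 7 of 12 control peaks (58.3%, with 67.1% expected), and all 5 unmatched control peaks were at Arid2, which encodes the ARID subunit specific to PBAF. Arid2 (chr15:96287522-96405463) had 0 assigned cKO peaks and 5 control peaks, none of them found, where 2.66 were expected to be. These 5 peaks formed a run over 67.8 kb inside the gene, in classes 1, 2, 1, 5 and 5. The gene was nevertheless open at its lower end in both lists, under a broad peak of 5666 bp in the cKO (chr15:96283797-96289462) and 5683 bp in the control (chr15:96283783-96289465). That peak is nearest to the neighbouring gene Gm38469 and was therefore not counted for Arid2. Brd7, a bromodomain subunit gene, kept all 5 of its control peaks, where 3.4 were expected, and Pbrm1 and Phf10 kept their single peaks.

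The 3 ncBAF genes kept 13 of 13 cKO peaks, with 93.95% expected, and 15 of 23 control peaks (65.2%, with 69.9% expected), a difference of -4.73 points whose interval of -20.9 to 11.4 holds 0. Bicral, a paralogue of Bicra, had 7 cKO peaks, all found, and 13 control peaks, of which 8 were found and 8.53 were expected. The 5 unmatched control peaks of Bicral were in classes 1 to 3. Bicra had 6 cKO peaks and kept 6 of 9 control peaks, and its 3 unmatched control peaks were stronger, in classes 4, 5 and 6. Brd9, which encodes the bromodomain subunit that defines ncBAF, had 1 control peak at its start, found, and 0 assigned cKO peaks. The cKO peak over that start, chr13:73936692-73938535, had its summit 16 bp away, on the side of the neighbouring gene Trip13, so this zero is a matter of assignment.

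The genes for the actin-related, SS18 and BCL7 subunits, which attach to the ATPase, kept 17 of 17 cKO peaks, with 99.5% expected, and 16 of 21 control peaks (76.2%, with 83.4% expected). The control value was -7.24 points from expectation, with an interval of -20.2 to 5.72 that holds 0. Bcl7a kept 5 of 8, and its relatives Bcl7b and Bcl7c kept all. Actl6a, the form used in dividing cells, kept 2 of 3 control peaks and Ss18, fused to SSX genes in synovial sarcoma, 1 of 2. Ss18l1, the neuronal alternative to Ss18, was among the 3 genes with more cKO than control peaks, 3 against 2, all of them matched. The summit of its control start peak lay 48 bp outside the gene and was not assigned to it, so this surplus, as at Brd9, is a matter of assignment.

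CHD genes made up most of the comparison group, with 57 of 63 cKO peaks found (90.5%, with 93.2% expected) and 58 of 81 control peaks (71.6%, with 73.2% expected). Chd2, which binds near active genes and is linked to epilepsy in people, had 17 cKO peaks, 16 of them found, and 23 control peaks, of which 16 were found and 17.08 were expected. Its 7 unmatched control peaks were all in classes 1 to 3, and its unmatched cKO peak, chr7:73489277-73489671, was in class 1. A group of strong shared peaks stood outside Chd2. In the control list those at 16.9, 53.6 and 76.7 kb from its end were in class 10, and each was in class 10 of the cKO list too. Chd7, mutated in CHARGE syndrome, had 16 cKO peaks, 15 of them found, and 21 control peaks, of which 15 were found and 13.86 were expected. All 6 unmatched control peaks of Chd7 were in classes 1 to 3, as was its unmatched cKO peak at chr4:8957808-8958170. Chd9, a relative of Chd7, had 12 cKO peaks, 11 of them found, and 15 control peaks, of which 12 were found and 11.86 were expected. The unmatched cKO peak of Chd9, chr8:91046315-91046906, was in class 1. Found minus expected, control peaks stood at -4.68 points for Chd2, 5.41 for Chd7 and 0.93 for Chd9, against -18.95 for Arid1b. The other BAF genes with at least 10 control peaks were Dpf3, at -5.94 points, and Bicral, at -4.10. Genes with fewer control peaks varied more, from 0% found with 53.2% expected at Arid2 to 100% with 67.95% expected at Brd7. At Ino80 33.3% were found, with 70.9% expected. The difference between Arid1b and the other genes was not tested.

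Chd3 and Chd5, ATPase genes of the NuRD family, were the other genes with more cKO than control peaks. Chd3 had 4 cKO peaks, 3 of them found, and 3 control peaks, all found. Its unmatched cKO peak, chr11:69370632-69371541, lay 1.51 kb outside the gene in class 1. Chd5 had 4 cKO peaks, 2 of them found, and 3 control peaks, 2 of them found. Its unmatched cKO peaks were chr4:152337284-152338084 in class 1, just upstream of the start peak, and chr4:152343185-152343910 in class 5, the strongest of the 7 unmatched cKO peaks of all members. Chd4, the third NuRD ATPase gene, had 1 cKO peak and kept 1 of 2 control peaks. Chd6 kept 4 of 8 control peaks, with 4.90 expected, Chd1, which reads methylated histone tails at active promoters, 3 of 4, and Chd8, linked to autism, 2 of 2.

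ISWI genes had little beyond their starts. Smarca1 and Smarca5, which space nucleosomes, had 1 peak in each list, and all were found. Among INO80 family genes, Srcap and Ep400, whose products deposit a histone variant at promoters, likewise had 1 peak in each list. Ino80 had 2 cKO peaks, both found, and 6 control peaks, of which 2 were found and 4.25 were expected. The 4 unmatched control peaks of Ino80, in classes 3 to 5, were split between the gene body and its flank. As a family these 3 genes kept 4 of 8 control peaks, -28.2 points from expectation with an interval of -53.1 to -3.20, all of it from Ino80. Hells, needed for DNA methylation at repeats, and Atrx, which helps deposit histones at repeats, had 1 start peak in each list, matched in both.

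Genes of related complexes that are not among the 44 gave a second view. A list of 88 genes for INO80, SRCAP and TIP60, NuRD, ISWI partner, other SNF2 and Polycomb proteins had 280 of 292 cKO peaks found (95.9%, with 95.6% expected) and 278 of 359 control peaks (77.4%, with 79.9% expected). A start peak was present in both lists at 87 of the 88. The ISWI partners were lowest among control peaks, with 22 of 37 found (59.5%, with 77.2% expected). Baz2b, a bromodomain partner of ISWI, accounted for 8 of their 15 unmatched control peaks and 1 unmatched cKO peak, keeping 7 of 15. In the remaining complexes the intervals of control shares against expectation held 0. Polycomb genes kept 113 of 140 control peaks (80.7%, with 82.2% expected), NuRD genes 44 of 57 (77.2%, with 75.7% expected) and INO80 subunit genes 30 of 43 (69.8%, with 77.2% expected). SRCAP and TIP60 genes kept 34 of 39 (87.2%, with 81.0% expected), and the other SNF2 ATPase genes 35 of 43 (81.4%, with 82.1% expected). Among Polycomb genes, the gene with the most unmatched control peaks was Jarid2, a cofactor of the Polycomb methyltransferase complex, with 11 of 18 found. In NuRD it was Mbd2, which binds methylated DNA, with 10 of 16, and among INO80 subunits Ino80d with 5 of 10. It was Epc2 with 3 of 5 for SRCAP and TIP60 and Rad54b, a recombination factor, with 4 of 7 for the other SNF2 genes. The other SNF2 genes had the lowest share of cKO peaks, 36 of 41 (87.8%, with 96.1% expected), and their 5 unmatched cKO peaks were at Ercc6l2, Zranb3 and Ttf2. Unmatched cKO peaks of the remaining lists were at Ino80e, Epc1, Hdac1, Rybp and Kdm2b.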

How the data were processed

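ATAC-seq peaks were compared between 1 Brg1 cKO and 1 control library. The build mm10 and the tools Trim Galore, SAMtools and Genrich are named in the submitters' processing notes. The sources used here do not give the aligner, versions, settings or any transposase shift of read ends. The authors deposited a peak list per library, with a score capped at 1000, a signal that is the area under the peak, -log10 p and -log10 q values and a summit offset per peak. The lowest -log10 q listed was 1.35 in the cKO and 1.42 in the control list, and the smallest area was 200.0 in both. Weaker peaks are not listed. Score and signal are not scaled between libraries, so strength was used only as a rank within a list.

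Genes were those of RefSeq GRCm38.p6, and coordinates are 1-based. Expected shares came from all peaks of the same list and strength class. Shares have exact Clopper-Pearson intervals, and intervals of differences are normal approximations to binomial counting error. Full values are given for Smarca4, Smarca2, genes with at least 10 control peaks, a cKO-only peak or under 50% of 2 or more control peaks found, and in related complexes for the gene with the most unmatched control peaks and any with an unmatched cKO peak; other genes and values named were chosen after their values were seen. The members, lists and this rule were chosen with earlier results of these data known. The procedure was tested on simulated data in which each peak was drawn independently. Dependence between peaks of the same gene was therefore not covered by that test. Python 3.11.15, numpy 2.4.6, pandas 2.3.3, scipy 1.17.1 and matplotlib 3.10.9 were used.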

Additional observations from a re-analysis of the deposited data

How the results depend on the processing

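No paired analysis was possible because there is 1 library per genotype. Of 185 main values under other settings, 170 stayed inside the counting interval of the main setting and 15 did not. Counts of genes with a start peak have no interval and were judged by a fold limit instead. No value whose interval excluded 0 changed sign. Shares found cannot change under settings that alter only the strength classes, so part of the 170 stayed the same by construction. Shares and counts also cannot change sign, so only found minus expected values and their differences could have done so. With overlap of 50% of both peaks required, 88.24% of all member cKO peaks and 90.52% of BAF cKO peaks were found, and 60.44% of all member control peaks. In the stronger 50% of each list, the shares were 97.3% for cKO peaks of the other ATPase genes, 75% for all member control peaks and 73.56% for BAF control peaks. With the control list reduced to as many peaks as the cKO list, they were 86.1% for all member and 87.93% for BAF cKO peaks, and 81.0%, 79.39% and 83.58% for control peaks of all members, BAF genes and the other ATPase genes; equal lengths bring the shares of both lists together by construction. With summits inside genes only, 60.0% of all member control peaks were found. Without precedence for the gene around a summit, 100% of BAF cKO peaks were found. Without Arid1b the shares were 100% for BAF cKO peaks and 72.09% for BAF control peaks.

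The difference between BAF and the other ATPase genes ranged from 2.18 to 9.01 points for cKO peaks and from -4.37 to 1.36 for control peaks. For cKO peaks its interval held 0 with 50% overlap of both peaks, in the stronger 50%, with equal list lengths and, in a setting added after the data were seen, with strength classes split by position (5.43 points). For control peaks it held 0 under every setting. The share of Arid1b control peaks found was 70.0% with equal list lengths, 63.16% in the stronger 50% and 53.12% without precedence. Start peaks were present in both lists at 42 of 44 genes within 500 bp and 44 within 2000 bp. The unknown depth limits all counts of unmatched peaks, since they were weak.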
